A study of Mus musculus with 10 samples.

Results

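Intercalated cells of the kidney collecting duct were followed in 2 single-cell libraries of mouse kidney and, through their marker genes, in whole-kidney RNA. A cell barcode was taken as intercalated where the unique molecular identifiers (UMIs, counts of single captured transcripts) of Atp6v1g3, Atp6v0d2 and Slc26a4 summed to at least 2, with fewer than 3 UMIs of Aqp2, fewer than 2 of Slc12a3 and 0 of Ptprc. The rule found 88 of 3063 barcodes in the library of an injured kidney and 32 of 1313 in the library of an uninjured kidney, 120 of 4376 in all. Because the members were chosen by measured transcripts, their levels of the rule genes, and of all genes when set against other barcodes of the same library, are given as a description with no test.

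Both single-cell libraries came from kidneys of C57/BL6 mice aged 8 weeks, digested on ice and sorted for live cells with the dye DAPI. In the injured kidney the artery of that side had been tied for 15 minutes, and tissue was taken 2 weeks later (ischaemia-reperfusion injury). The whole-kidney libraries used here covered 3 arms, each with 4 injured and 4 contralateral libraries at the same age. The contralateral kidney is the opposite kidney of an animal with 1 injured kidney, and not a kidney of an unoperated animal. The arms were Pax8creERT2;Ihhfl/fl with tamoxifen (IRI_TG_TAM and CONTRA_TG_TAM), C57/BL6 with tamoxifen (IRI_WT_TAM and CONTRA_WT_TAM) and Pax8creERT2;Ihhfl/fl without it (IRI_TG_VEH and CONTRA_TG_VEH, the second group named as vehicle by its title alone). Pax8-driven Cre acts in tubule and collecting duct epithelium, so the deletion of Indian hedgehog, Ihh, is not limited to intercalated cells.

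Intercalated cells keep the acid-base balance of the body. They are packed with the vacuolar proton pump, a machine with an ATP-splitting V1 domain in the cytosol and a proton-conducting V0 domain in the membrane, and with carbonic anhydrase, which supplies protons and bicarbonate. Type A cells pump protons into the urine and return bicarbonate to the blood through the anion exchanger AE1, encoded by Slc4a1. Type B cells work the other way round and secrete bicarbonate through pendrin, encoded by Slc26a4. The forkhead factor Foxi1 sets the intercalated fate and drives pump subunit genes, and Notch signalling from neighbouring cells favours the principal fate, the water- and sodium-handling cell marked by Aqp2. Intercalated cells are also known for antimicrobial defence and for sensing of injury through the UDP-glucose receptor P2ry14.

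The promoters of a pump subunit and an exchanger from the rule, and of a known Foxi1 target, are shown because these genes define the cells. Each runs 5′ to 3′ on the gene's own strand from 250 bases before to 50 bases after the annotated start, from RefSeq on GRCm38.p6. They lie at chr1:138273488-138273787 on the plus strand, chr12:31559935-31560234 on the minus strand and chr6:83742767-83743066 on the plus strand. Capitals mark the forkhead core GTAAACA, searched on both strands, so that its reverse complement reads TGTTTAC.
Atp6v1g3: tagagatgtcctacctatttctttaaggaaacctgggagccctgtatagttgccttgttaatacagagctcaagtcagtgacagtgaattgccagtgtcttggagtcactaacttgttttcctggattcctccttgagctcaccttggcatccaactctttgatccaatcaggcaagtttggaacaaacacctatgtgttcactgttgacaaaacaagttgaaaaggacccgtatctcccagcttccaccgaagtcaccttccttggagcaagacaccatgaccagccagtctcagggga
Slc26a4: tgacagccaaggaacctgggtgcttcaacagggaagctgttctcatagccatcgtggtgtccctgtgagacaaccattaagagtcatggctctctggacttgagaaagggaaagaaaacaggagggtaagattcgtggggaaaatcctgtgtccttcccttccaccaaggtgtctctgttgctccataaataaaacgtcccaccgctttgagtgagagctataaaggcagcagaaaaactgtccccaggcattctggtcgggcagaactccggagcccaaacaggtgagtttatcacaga
Atp6v1b1: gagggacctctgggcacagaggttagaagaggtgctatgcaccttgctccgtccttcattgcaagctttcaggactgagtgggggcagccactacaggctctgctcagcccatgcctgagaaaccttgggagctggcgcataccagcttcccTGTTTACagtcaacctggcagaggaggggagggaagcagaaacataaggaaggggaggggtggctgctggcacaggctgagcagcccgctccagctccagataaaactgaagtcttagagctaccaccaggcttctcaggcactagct
The core stood 98 bases before the start of Atp6v1b1, the kidney form of the pump's B subunit, and in neither of the other windows. Of 28 genes listed as intercalated, 20 had a promoter in the table, and 3 of these held the core (Atp6v1b1, P2ry14 and Pde1c), against 3.65% of all 32851 promoters. Pde1c was found in few members, 4 of 88 injured and 1 of 32 uninjured ones. Barcodes of principal cells held it in 7 of 51 injured and 1 of 24 uninjured cases. Atp6v0d2 was not among the promoters found. A match of letters is a description only.

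The 88 injured members held 314946 UMIs with a median of 3496.5 per barcode, and the 32 uninjured members held 131206 with a median of 4069.5. The median number of genes detected was 1592.5 in injured and 1545 in uninjured members. Mitochondrial transcripts took a median of 14.25% of UMIs in injured members, with a range of 2.18% to 48.1%, and 20.002% in uninjured members, with a range of 3.88% to 49.2%. The libraries shared 8 barcode sequences, and none of these was a member. With 1 library per condition there is no replicate check, so no p-value is given for the single cells. Levels are the members' summed UMIs scaled to a common library total (CPM), and 95% intervals are exact and cover counting error only.

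Few members lay near the edge of the rule. Marker sums of members ran from 3 to 84 UMIs with a median of 22 in the injured library, and from 4 to 86 with a median of 33 in the uninjured library. No more than 6 injured members and 1 uninjured member had a sum of 5 or fewer, and those injured members still held 12 UMIs of Foxi1. Just outside, 69 injured and 34 uninjured barcodes had a sum of 1, and in these Foxi1, Hmx2 and Atp6v1c2 were all at 0 UMIs. Of the barcodes with a sum of at least 2, the Aqp2 limit left out 3 in the injured and 1 in the uninjured library, the leukocyte gene Ptprc left out 9 and 0, and Slc12a3 left out none.

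Intercalated cells took 2.87% of injured barcodes (95% Clopper-Pearson interval 2.31% to 3.53%) and 2.44% of uninjured barcodes (1.67% to 3.42%). Digestion and sorting can set such shares, and the denominators differed in make-up, with 890 leukocyte barcodes (Ptprc present) among the injured and 34 among the uninjured ones. Set only against principal barcodes, which held at least 3 UMIs of Aqp2 and none of the rule genes, members made up 63.3% of 139 injured barcodes (54.7% to 71.3%) and 57.1% of 56 uninjured barcodes (43.2% to 70.3%). On either denominator the intervals of the libraries overlapped. Among barcodes without Ptprc the members' share was 4.08% in the injured and 2.51% in the uninjured library.

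The label was borne out by markers that the rule did not use. The 25 further intercalated genes summed to 11637 CPM in injured and 14024 CPM in uninjured members, against 454 and 573 CPM in all other barcodes of the same libraries. The lowest single member stood at 935 CPM in the injured and 1797 CPM in the uninjured library, still above those averages. Principal barcodes held 2934 CPM of these genes in the injured and 3869 CPM in the uninjured library. These levels are below the members' sums but above the lowest single members. The sum over 10 principal cell markers was 635 CPM in injured and 648 CPM in uninjured members, where principal barcodes held 22342 and 26189 CPM. Foxi1, found in 62 injured and 21 uninjured members, stood at 1.48 CPM in other injured barcodes and 0.51 CPM in other uninjured barcodes.

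Transcripts of other cell types were also present, and not equally in both libraries. At least 3 UMIs of other-type genes were found in 35 of 88 injured and 10 of 32 uninjured members. Proximal tubule markers, 16 genes, summed to 1496 CPM in injured and 3285 CPM in uninjured members, against 52061 and 61975 CPM in proximal barcodes themselves. Thick limb markers summed to 841 CPM in injured and 213 CPM in uninjured members, and 1 injured barcode held 72 of the 134 Umod UMIs and 35 of the 47 Slc12a1 UMIs. Connecting and distal convoluted markers summed to 3299 CPM in injured and 4832 CPM in uninjured members, against 11769 and 13853 CPM in distal convoluted barcodes themselves. A single uninjured member reached 73171 CPM. Endothelial markers stood at 25.4 and 7.62 CPM in injured and uninjured members, fibroblast markers at 38.1 and 30.5 CPM, and podocyte markers at 6.35 and 0 CPM.

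Leukocyte and haemoglobin transcripts also differed between the libraries. The 9 myeloid markers summed to 60.3 CPM in injured members, with 3 genes at 0, and to 7.62 CPM in uninjured members, with 8 genes at 0. The 12 lymphocyte markers summed to 416 CPM in injured members and 15.2 CPM in uninjured members. Most of it in injured members was Igkc, the kappa light chain of antibodies, with 102 UMIs over 62 of the 88. Igkc was found in 70.5% of injured members, against 67.1% of injured proximal barcodes, and its source in members was not tested. The 4 haemoglobin genes summed to 15.9 CPM in injured and 9451 CPM in uninjured members, and almost all came from 1 uninjured member, which held 1238 of the 1240 globin UMIs found in uninjured members, 28.3% of its own 4367 UMIs.

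Among the rule genes, Atp6v1g3 was by far the most abundant transcript. This G subunit, made almost only in intercalated cells, was found in every member, at 5477 CPM (5222 to 5742) in the injured and 6890 CPM (6448 to 7354) in the uninjured library, a log2 ratio of −0.33 (−0.45 to −0.21). Atp6v0d2, the d subunit form of osteoclasts and intercalated cells, stood at 806 CPM in 80 injured members and 777 CPM in 29 uninjured members, and the interval of its ratio spanned 0 (0.05, −0.28 to 0.40). Slc26a4, pendrin, stood at 524 CPM over 32 injured members and 808 CPM over 20 uninjured members, a log2 ratio of −0.62 (−0.99 to −0.26). Within members of type B, defined further on, pendrin stood at 1187 CPM in the injured and 1221 CPM in the uninjured library (−0.04, −0.40 to 0.33). Pendrin is among the genes that define type B, so its level there describes the class and tests nothing.

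The transcription factors of the lineage did not move together. Foxi1 was higher in injured members, at 648 CPM (204 UMIs) against 366 CPM (48 UMIs) in uninjured members, a log2 ratio of 0.82 (0.36 to 1.31), with 0.99 among type A and 0.56 (−0.04 to 1.20) among type B members. Dmrt2, a factor of type A cells, stood at 178 CPM in 34 injured members and 61.0 CPM in 7 uninjured members (1.54, 0.47 to 2.82). Within type A alone the ratio of Dmrt2 was 0.80 and its interval, −0.29 to 2.08, spanned 0. Hmx2, a factor of type B cells, stood at 705 CPM in injured and 1128 CPM in uninjured members (−0.68, −0.98 to −0.37). A single uninjured barcode held 57 of the 148 uninjured Hmx2 UMIs, and without the top barcode of each library the ratio was −0.16. Tfcp2l1, which cooperates with Foxi1, stood at 813 CPM in injured and 869 CPM in uninjured members, with a ratio of −0.10 (−0.42 to 0.24).

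Genes of acid-base exchange and ammonia transport were mostly within 2-fold between the libraries. Slc4a1, AE1, had 73 UMIs in 27 injured members and 57 in 11 uninjured members, 232 and 434 CPM (log2 ratio −0.91, −1.43 to −0.38). Slc4a1 and Kit help to define type A, so their ratios within it are a description. Within type A the ratio of Slc4a1 was −1.39 (−1.92 to −0.84), at 492 CPM in injured and 1286 CPM in uninjured cells. Slc4a9, the type B exchanger AE4, stood at 178 CPM in injured and 274 CPM in uninjured members (−0.63, −1.26 to 0.02), and Insrr, a receptor that senses alkali, at 124 and 213 CPM (−0.79, −1.52 to −0.03). The ammonia channels Rhcg and Rhbg gave −0.45 and −0.07, and both intervals spanned 0. Car2, the cytosolic carbonic anhydrase, stood at 3369 CPM in injured and 4596 CPM in uninjured members (−0.45, −0.59 to −0.30). Its ratio was −0.89 in type A and −0.02 in type B members. Kit, a receptor tyrosine kinase found on type A cells, went the other way, with 257 CPM in injured and 130 CPM in uninjured members (0.99, 0.22 to 1.84), although within type A the ratio was 0.34 (−0.43 to 1.19).

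Of 27 acid-base and ion transport genes, 12 had a mean of at least 100 CPM over both libraries, and none of these was past 2-fold in either direction. Over all 1372 genes at that level 4.37% were past 2-fold higher and 1.82% lower, so none of 12 is close to those shares. The median log2 ratio of the 12 was −0.26, against 0.08 over all 1372 genes. Fxyd2, a regulator of the sodium pump, had the lowest ratio apart from Slc4a1, with 3359 CPM in injured and 5899 CPM in uninjured members (−0.81, −0.95 to −0.68). Fxyd2 is abundant in proximal tubule and stood at 2966 and 6787 CPM in the other barcodes of the injured and uninjured library, so the part of stray transcripts in this ratio was not tested. Atp1b1, a beta subunit of the sodium pump, had a ratio of 0.24 (0.03 to 0.45).

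Proton pump genes that reached a mean of 100 CPM were within 2-fold between the libraries. Among all 1372 genes at that level, only 4.37% were past 2-fold higher and 1.82% lower. None past 2-fold in lists this short is close to those shares. Of 11 V1 genes, 9 had a mean of at least 100 CPM, and none was past 2-fold. Apart from the rule gene Atp6v1g3, whose own ratio of −0.33 is the median of these 9 and which helped to choose the members, the interval lay below 0 for Atp6v1c2 (−0.69), Atp6v1d (−0.61) and Atp6v1a (−0.36). Of 11 V0 genes, 6 reached that level, none was past 2-fold, and the median was 0.03. Atp6v0b, a proteolipid of the membrane ring, stood at 1197 CPM in injured and 1197 CPM in uninjured members, and Atp6v0e at 1575 and 1387 CPM. Atp6v1c2, the C subunit form with the lowest ratio, had −1.62 (−2.25 to −0.98) among type A members and 0.20 (−0.25 to 0.67) among type B members. Atp6v1b1 had 533 CPM in injured and 572 CPM in uninjured members (−0.10, −0.50 to 0.31), and Atp6v0a4, whose loss causes renal tubular acidosis, had 537 and 587 CPM (−0.13, −0.53 to 0.28).

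For 5 subunits a form enriched in intercalated cells could be set against the form that most cells use. In members the enriched form took nearly all UMIs of each pair. Atp6v1g3 made up 92.1% (90.8% to 93.3%) of the G subunit UMIs in injured and 94.5% (92.8% to 95.8%) in uninjured members, with Atp6v1g1 as the partner. Atp6v0d2 made up 93.04% of the d subunit in injured and 95.3% in uninjured members, and Atp6v1c2 87.9% and 91.1% of the C subunit. Atp6v1b1 made up 88.4% of the B subunit in injured and 89.3% in uninjured members, and Atp6v0a4 94.9% and 97.5% of the a subunit. In each pair the intervals of the libraries overlapped.

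The 5 pairs fell into different kinds when other epithelia were looked at. Atp6v0a4 was also the main form in proximal barcodes, with 88.0% in the injured and 89.0% in the uninjured library, and in principal barcodes. Atp6v1b1 was the main form in principal barcodes, with 76.7% of 30 UMIs in the injured and 84.0% of 25 UMIs in the uninjured library, but took 2.00% and 2.35% in proximal barcodes. Atp6v1c2 had 0 UMIs in principal barcodes of either library, against 10 injured and 4 uninjured UMIs of its partner, so few that shares of up to 30.9% and 60.2% are allowed. In proximal barcodes its share was 1.32% in the injured and 0.82% in the uninjured library. Atp6v1g3 and Atp6v0d2 were at 0 there, which the rule fixes, since comparison barcodes had none of the rule genes. The B, a and C pairs were not used to choose barcodes.

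**Figure D1:**
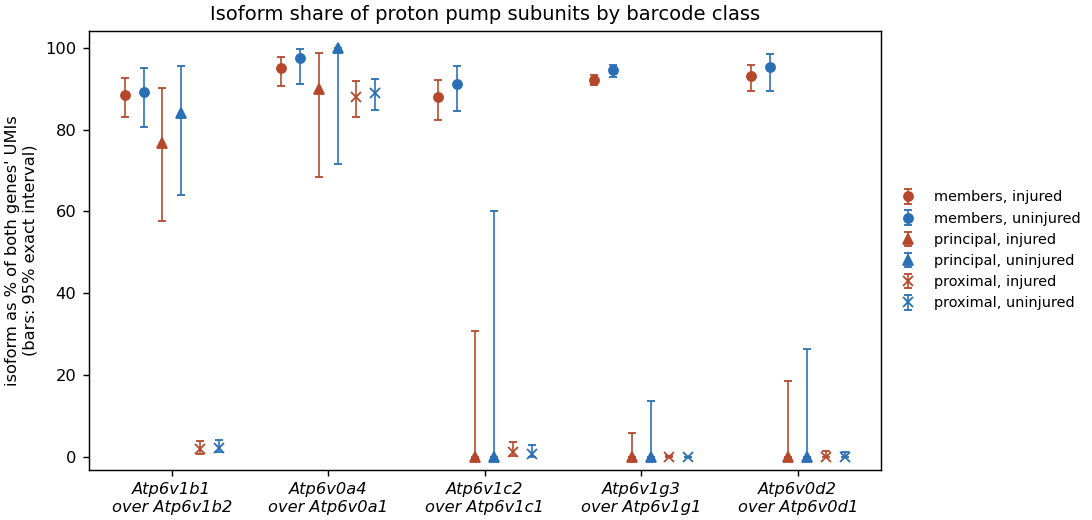
Share of the intercalated form among the UMIs of both forms of each pump subunit (vertical axis, %), for injured (red) and uninjured (blue) members, principal and proximal barcodes, with exact 95% intervals. Members lie between 87.9% and 97.5% for every subunit, Atp6v0a4 is also high in proximal barcodes, and Atp6v1b1 stays at 2.00% and 2.35% there.

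Members were divided into type A, where UMIs of Slc4a1, Aqp6 and Kit outnumbered those of Slc26a4, Slc4a9 and Insrr, and type B, where the reverse held, a division chosen after the data were seen. In the injured library 41 of 88 members were type A (46.6%, 35.9% to 57.5%), 37 were type B (42.0%, 31.6% to 53.0%) and 10 had no UMI of either set. In the uninjured library 10 of 32 were type A (31.3%, 16.1% to 50.008%), 20 were type B (62.5%, 43.7% to 78.9%) and 2 had none. After each barcode was thinned to 1000 UMIs, type A took 30.7% of injured and 31.3% of uninjured members, and type B 33.0% and 46.9%. The order of type A between libraries did not hold at equal depth, so none is read from it.

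The exchangers of type A and type B were rarely found in the same member, unlike UMIs of both sets. Slc4a1 and Slc26a4 were found together in 0 of 88 injured members, which allows a share of up to 4.11%, and in 1 of 32 uninjured members. Any UMIs of both sets occurred in 19 injured and 6 uninjured members, 21.6% and 18.8%. Some type calls rested on a single UMI.

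**Figure D2:**
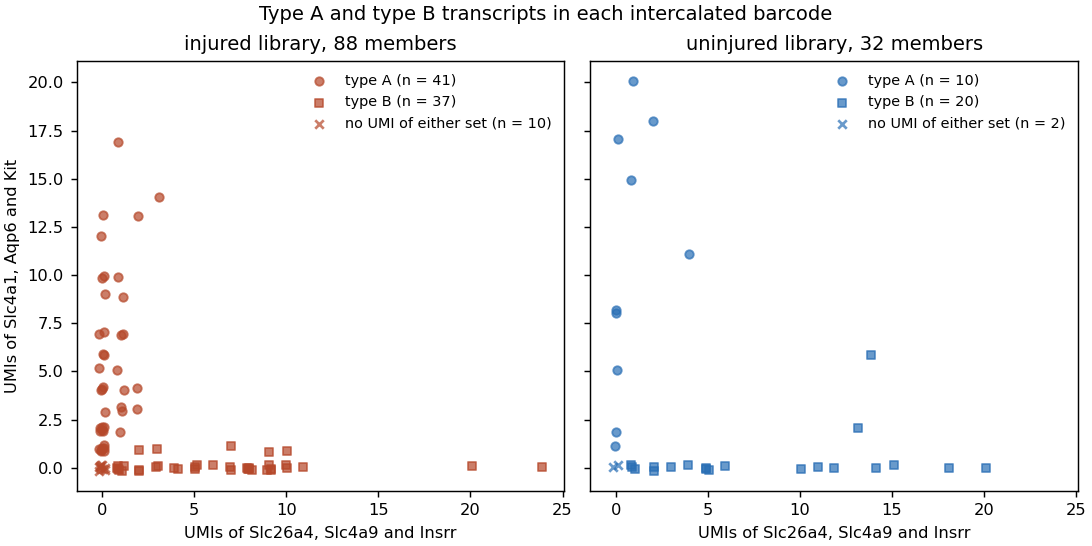
Each point is a member, with UMIs of the type B genes on the horizontal axis and of the type A genes on the vertical axis, injured library on the left and uninjured library on the right. A small random offset separates points with the same counts. Most points lie along the axes, with 41 and 10 type A, 37 and 20 type B and 10 and 2 members without a UMI of either set.

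Genes that set the types apart were ranked in the injured library alone and then read in the uninjured library. Apart from Umod and Slc12a1, which came mainly from 1 barcode, type A was led by Dmrt2, with 51 UMIs in type A and 1 in type B injured cells and 8 and 0 in uninjured cells. Defb1, an antimicrobial defensin, followed the same split, with 2762 CPM in type A and 460 CPM in type B injured cells and 2200 and 265 CPM in uninjured cells, log2 ratios of 2.58 and 3.05. Adgrf5, an adhesion receptor of intercalated cells, had A over B ratios of 2.32 in injured and 4.69 in uninjured members. Mme, the peptidase neprilysin, had 2.43 and 3.56, Wfdc15b, a small whey acidic protein, 2.63 and 3.27, and Cryab, a small heat shock protein, 2.62 and 1.93. Prss23, a serine protease, had 2.71 in injured members and 15 against 0 UMIs in uninjured ones.

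Type B was led by Hmx2, with 0 UMIs in type A cells of either library, against 216 UMIs in 28 injured and 135 UMIs in 19 uninjured type B cells. Its level in type B was 1554 CPM in the injured and 1555 CPM in the uninjured library. Igfbp5, a binding protein of insulin-like growth factors, also had 0 UMIs in type A, against 44 in injured and 41 in uninjured type B cells. Car12, a membrane carbonic anhydrase, had A over B log2 ratios of −1.92 in injured and −1.73 in uninjured members, Spink8, a protease inhibitor, −2.10 and −1.4, Cst3, cystatin C, −1.97 and −1.42, and Spp1, osteopontin, −1.53 and −1.4. Spp1 reached 6223 CPM in injured and 4573 CPM in uninjured type B cells. Of the 10 genes ranked for type B, all 10 had a ratio below 0 in the uninjured library, and Tmem37 was nearest to 0 with −0.36 (−2.46 to 1.4). The list for type A held less well. Umod turned from 1.61 in injured to −0.77 in uninjured members, with 0 UMIs in type A and 11 in type B uninjured cells. Slc12a1 and Tmem158 were too low in uninjured members for a ratio. The share of all genes that keep their direction is not given here.

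Injured and uninjured members were compared over 1372 genes with a mean of at least 100 CPM. Past 2-fold, 60 genes (4.37%) were higher and 25 (1.82%) lower in injured members, the median log2 ratio was 0.08 and the quartiles were −0.24 and 0.40. For 14 genes higher and 5 lower the counting interval itself lay beyond 2-fold. The call rule has no error between animals in it, so these counts describe this pair of libraries.

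The 10 leading genes in the higher group were Plac8, Ly6a, Igkc, Tmem158, Cd24a, Cldn4, Ly6e, B2m, Tmsb4x and Nfkbia. Igkc is described above, and B2m and Nfkbia further on. Plac8, a small cysteine-rich protein, had 106 UMIs over 27 injured members and 1 UMI in uninjured members, a log2 ratio of 5.46 (2.96 to 10.8). Plac8 was found in 30.7% of injured members, against 9.58% of injured proximal and 27.5% of injured leukocyte barcodes. At 1000 UMIs per barcode it was in 17.0% of injured members (9.87% to 26.6%), 4.27% of injured proximal barcodes (3.08% to 5.75%) and 3.92% of injured principal barcodes. In injured leukocyte barcodes it was in 178 of 890 at that depth (17.4% to 22.8%), a higher share than in members, whereas at full depth the share was lower than in members. Tmem158, a membrane protein induced by Ras signalling, had 64 UMIs over 26 injured members and 0 UMIs in uninjured members, at least 3.15 higher on the log2 scale against a floor of 3 counts. Tmem158 was found in 29.5% of injured members, against 0.42% of injured proximal barcodes. In principal barcodes it was found in 5 of 51 injured ones (9.80%, 3.26% to 21.4%) and 0 of 24 uninjured ones, the same direction as in members.

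Cldn4, a claudin of collecting duct tight junctions, had 87 UMIs in 32 injured members and 6 in 5 uninjured members (2.59, 1.41 to 4.08), and was found in 0.83% of injured proximal barcodes. Cd24a, a surface glycoprotein, had 103 UMIs in 47 injured members and 7 in 4 uninjured members (2.62, 1.52 to 3.97), and was found in 4.38% of injured proximal barcodes. Ly6a, known as Sca-1, had 107 UMIs in 36 injured members and 2 in 2 uninjured members (4.48, 2.59 to 7.54). In proximal barcodes Ly6a was found in 47.3% of the injured and 47.2% of the uninjured library, so its low count in uninjured members stood apart from the rest of that library. Ly6e, of the same family, had 194 UMIs in injured and 14 in uninjured members (2.53, 1.75 to 3.43), and Tmsb4x, the actin-binding thymosin beta 4, 373 and 28 (2.47, 1.92 to 3.08). Ly6e was found in 65.9% of injured and 28.1% of uninjured members, against 35.6% and 35.4% of proximal barcodes in the same libraries. Tmsb4x was found in 81.8% of injured and 46.9% of uninjured members, and in 42.6% of injured and 7.83% of uninjured proximal barcodes, so its shares differed in the same direction there. Among injured leukocyte barcodes 98.8% held Tmsb4x. In injured type A cells Tmsb4x stood at 1563 CPM against 470 CPM in uninjured ones, and in type B cells at 791 against 80.6 CPM.

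In the other direction the list was short. The globin genes Hba-a1, Hba-a2, Hbb-bs and Hbb-bt filled 4 of the 5 lower places, and the single globin-rich uninjured barcode described above held nearly all of their UMIs. The remaining gene was Gstm1, a glutathione transferase, with 31 UMIs in 26 injured members and 53 UMIs in 18 uninjured members (−2.04, −2.73 to −1.37). A single uninjured barcode held 16 of those 53 UMIs, and without the top barcode of each library the ratio was −1.64. Within type B it was −2.20 (−3.15 to −1.32) and within type A −1.24 (−2.55 to 0.15).

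**Figure D3:**
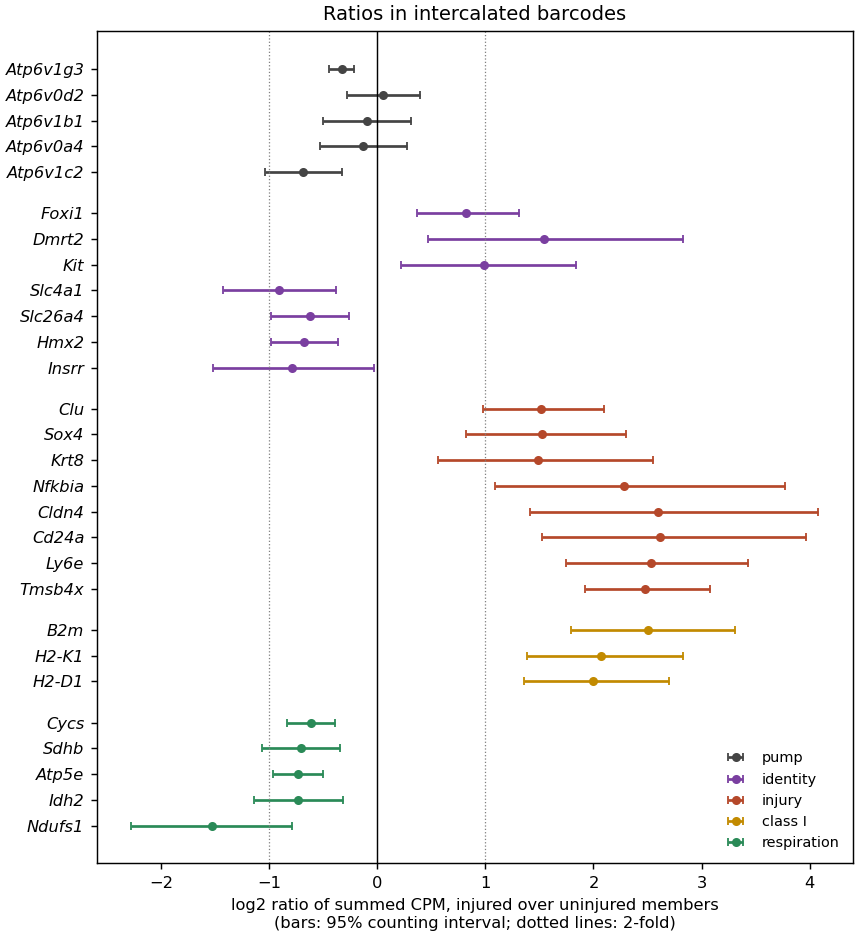
Log2 ratio of summed CPM in injured over uninjured members (horizontal axis) for genes of 5 groups, with exact 95% counting intervals and dotted lines at 2-fold. Pump genes lie within 2-fold, and Dmrt2 and Foxi1 lie above 0. The plotted injury and class I genes lie to the right, between 1.49 for Krt8 and 2.62 for Cd24a. The 5 plotted respiratory genes lie below 0. Genes were picked for display, and Nfkbia, Cldn4, Cd24a, Ly6e and Tmsb4x are among the leading higher genes named above. Krt7, at −0.02, is not plotted, and neither are the 3 of 24 respiratory genes above 0, the highest at 0.78.

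Tmem158, Plac8, Cldn4, Cd24a and Ly6a were scored as present or absent in each member. They were chosen because they were higher in injured members, which fixes the direction of the scores that follow. All 5 genes reached the minimum of 100 CPM through the injured library alone. At least 2 of the 5 were present in 50 of 88 injured members (56.8%, 45.8% to 67.3%) and in 2 of 32 uninjured members (6.25%, 0.77% to 20.8%). At least 3 were present in 30 injured members (34.1%) and in none of the uninjured ones, which allows a share of up to 10.9%. All 5 were present in 5 injured members. With every barcode thinned to 1000 UMIs, at least 2 were present in 26 injured members (29.5%, 20.3% to 40.2%) and in 0 uninjured members.

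Cells of both types held these genes. At least 2 of the 5 genes were present in 27 of 41 type A and 15 of 37 type B injured members, against 0 of 10 type A and 2 of 20 type B uninjured members. Tmem158 leaned to type A, with 45 UMIs in type A and 6 in type B injured cells, whereas Plac8 was level, at 330 CPM in type A and 324 CPM in type B. Cldn4 stood at 148 CPM in type A and 273 CPM in type B injured cells. Of the 26 injured members with Tmem158, 21 also held Cd24a, 13 held Plac8, 12 held Ly6a and 11 held Cldn4. Over all 88 injured members, 47 held Cd24a, 27 Plac8, 36 Ly6a and 32 Cldn4. Whether the genes occurred together beyond these shares was not tested. Present or absent depends on depth, and members with more UMIs have more chances of each gene.

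**Figure D4:**
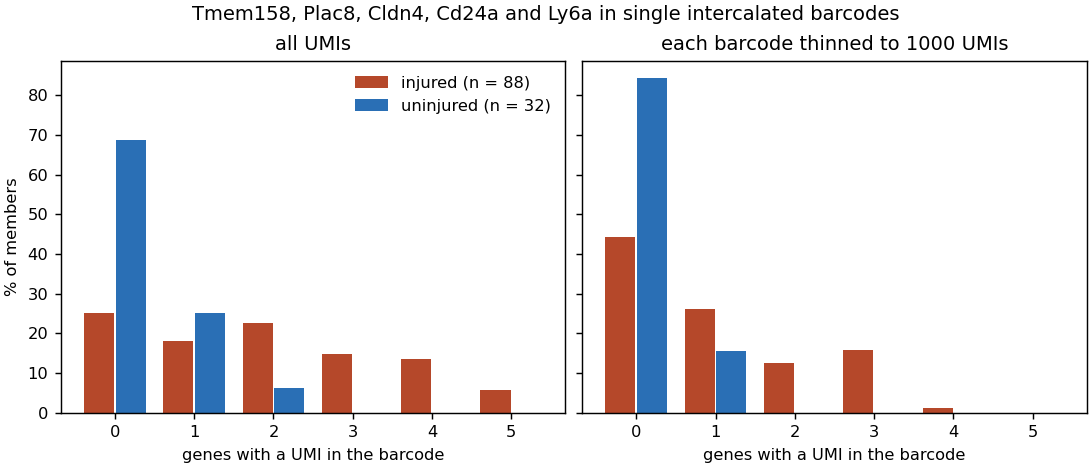
Share of members (vertical axis, %) by how many of Tmem158, Plac8, Cldn4, Cd24a and Ly6a had a UMI (horizontal axis), in 88 injured (red) and 32 uninjured (blue) members, with all UMIs on the left and 1000 UMIs per barcode on the right. No uninjured member held 3 or more of the genes, against 34.1% of injured members with all UMIs.

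Principal cells of the same libraries gave a contrast next door in the same tubule, over 51 injured and 24 uninjured barcodes. The ratio in members minus the ratio in principal barcodes was 3.04 for Cldn4 (1.58 to 4.49). Cldn4 in principal barcodes stood at 202 CPM in the injured and 274 CPM in the uninjured library. Cd24a stood at 718 and 606 CPM in principal barcodes, and its difference was 2.37 (1.15 to 3.59). For Ly6a the difference was 4.06 (1.96 to 6.15), for Nfkbia 3.16 (1.34 to 4.99), for Tmsb4x 1.83 (1.25 to 2.41) and for Sh3bgrl3, a small thioredoxin-like protein, 1.92 (1.41 to 2.43). Tuba1a, an alpha tubulin, had 4.79 (2.22 to 7.36), of which the members' own ratio was 1.93 and that in principal barcodes −2.86, the second from 2 of 51 injured and 6 of 24 uninjured barcodes. The reverse difference, −5.57 for S100a6, rested on 25 UMIs in a single uninjured member, and without the top barcode of each library the members' own ratio was 0.94. These intervals cover counting error only.

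Of 30 injury and inflammation genes, 7 had a mean of at least 100 CPM, 4 of these were past 2-fold higher and none lower, and the median was 1.49. Among all 1372 genes at that level, 4.37% were past 2-fold higher and 1.82% lower. Of the 4, Nfkbia and Krt8 reached that mean only through the injured library, which fixes their direction. Clu, the secreted chaperone clusterin, had 220 UMIs in 58 injured members and 32 in 13 uninjured members (1.52, 0.98 to 2.10). Sox4, a developmental transcription factor, had 131 and 19 UMIs (1.52, 0.82 to 2.30), and Krt8, a simple epithelial keratin, 74 and 11 (1.49, 0.56 to 2.55). Nfkbia, the inhibitor of NF-κB that NF-κB itself induces, had 70 UMIs in 37 injured members and 6 in 6 uninjured members (2.28, 1.09 to 3.78). Krt7 and Spp1 were within 2-fold, at −0.02 and 0.28. Havcr1, the injury marker Kim-1 of the proximal tubule, had 0 UMIs in members of both libraries, and Lcn2 had 5 in injured and 0 in uninjured members. With members holding 3 or more UMIs of other-type genes left out, which keeps 53 injured and 22 uninjured members, the median was 0.81 and 3 genes were past 2-fold.

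Genes of antigen presentation were higher in injured members and in every other epithelium looked at. All 3 of the 22 that reached 100 CPM were past 2-fold, with a median of 2.07, where 4.37% of all genes at that level were past 2-fold higher. B2m, the light chain of class I molecules, stood at 733 CPM in injured and 130 CPM in uninjured members (2.5, 1.79 to 3.31), H2-K1 at 606 and 145 CPM (2.07) and H2-D1 at 667 and 168 CPM (1.99). In principal, thick limb and proximal barcodes the same 3 genes had ratios between 1.06 and 2.13. Leukocyte barcodes hold far more of these transcripts, and other injured barcodes averaged 2339 CPM of B2m against 397 CPM in other uninjured ones. The part of stray transcripts in the members' ratio was not tested, and with members holding 3 or more UMIs of other-type genes left out the median was 1.76.

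Among all genes with a mean of at least 100 CPM, 4.37% were past 2-fold higher. Of 18 antimicrobial and UDP-glucose sensing genes, 3 reached 100 CPM and 1 was past 2-fold, with a median of 0.96. These were Wfdc15b (1.56, 0.64 to 2.62), Wfdc2 (0.96, 0.41 to 1.55) and Defb1, which had 514 UMIs in injured and 112 in uninjured members (0.94, 0.64 to 1.24). Wfdc15b reached 100 CPM only through the injured library. Defb1 and Wfdc15b are type A genes here, and within type A the ratio of Defb1 was 0.33 (−0.01 to 0.68). P2ry14 had 31 UMIs in 21 injured members and 8 in 7 uninjured members (0.69, −0.46 to 2.02). Of 22 immediate early and dissociation genes, which can respond to tissue digestion, 7 reached 100 CPM and 2 were past 2-fold, Klf6 (1.57) and Junb (1.0), with a median of 0.74. Klf6 reached 100 CPM only through the injured library. A single barcode held 15 of the 16 uninjured Junb UMIs, and the list's median was 0.05 with members holding other-type UMIs left out.

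Respiratory chain and citrate cycle genes leaned the other way. All 24 reached 100 CPM, 21 had a ratio below 0, for 12 the interval lay below 0, 1 was past 2-fold lower and the median was −0.34. Among all 1372 genes at that level, 592 had a ratio below 0 and 1.82% were past 2-fold lower. For intervals below 0 no such share is given here. Ndufs1, a core subunit of complex I, had 30 UMIs in injured and 36 in uninjured members (−1.53, −2.28 to −0.79). Cycs, cytochrome c, stood at 1419 CPM in injured and 2172 CPM in uninjured members (−0.61, −0.83 to −0.39), and Atp5e, of ATP synthase, at 1207 and 2012 CPM (−0.74, −0.97 to −0.51). Idh2 (−0.74) and Sdhb (−0.70) were similar in size. Ppargc1a, the inducer of mitochondrial biogenesis, stood apart with 197 CPM in injured and 114 CPM in uninjured members (0.78, −0.05 to 1.70). The median was −0.56 within type A and −0.20 within type B, and it moved beside a lower mitochondrial UMI share in injured members, with a median of 14.25% against 20.002% in uninjured members. With no more than 25% mitochondrial UMIs the median was −0.54. With members holding UMIs of other cell types left out it was −0.19, and 8 of 24 genes were above 0, against 3 of 24 among all members. Of all genes, 860 of 1398 were above 0 in that setting and 780 of 1372 among all members.

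Of 15 identity and Notch genes, 7 reached 100 CPM, with Dmrt2 past 2-fold higher and Jag1 past 2-fold lower. Both reached that mean only through the library where they were higher. Among all genes at that level, 4.37% were past 2-fold higher and 1.82% lower. Jag1, a Notch ligand, had 29 UMIs in 21 injured and 29 UMIs in 18 uninjured members, 92.1 and 221 CPM (−1.26, −2.06 to −0.47). Hes1, a Notch target, gave −0.46 (−1.39 to 0.53). No Hedgehog gene of 12 reached 100 CPM, and together they summed to 102 CPM in injured and 99.1 CPM in uninjured members.

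Whole-kidney RNA gave a comparison that the choice of barcodes did not use. The 12 injured and 12 contralateral libraries held 18.2 to 37.9 M counts, and levels are CPM scaled by TMM factors. CONTRA_TG_VEH library 2 stood apart, with the highest total, a TMM factor of 0.724 and 5.55% mitochondrial counts. Ihh transcripts were still present in the arm labelled as deleted, at 4.36 to 6.16 CPM in IRI_TG_TAM and 3.98 to 18.7 CPM in CONTRA_TG_TAM, against 4.89 to 10.1 CPM in IRI_WT_TAM and 9.12 to 16.1 CPM in CONTRA_WT_TAM. The labels do not say that the 4 libraries of a group are separate animals, so p-values cover the spread between these libraries. Tested by quasi-likelihood in edgeR, with p-values adjusted after Benjamini and Hochberg, 6716 of 16989 genes (39.5%) were higher and 6038 (35.5%) lower in injured kidneys, averaged over the arms. The counts were 10178 higher and 3323 lower when library totals replaced TMM factors, and the median log2 change of all genes was 0.05 with TMM and 0.41 without. In whole tissue, fewer cells of a type and less RNA per cell cannot be told apart.

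The 3 rule genes split. Atp6v1g3 had a lowest, median and highest value of 6.22, 15.5 and 24.7 CPM in injured kidneys, against 6.86, 9.31 and 17.5 CPM in contralateral kidneys. It rose by 0.46 ± 0.14 on the log2 scale (SE, adjusted p = 0.00459), and the groups overlapped. By arm the change was 0.83 in TG_TAM and 0.68 in TG_VEH, with adjusted p-values of 0.0128 and 0.0158, and −0.12 in WT_TAM (adjusted p = 0.673). Over the arms with intact Ihh it was 0.28 and did not pass the threshold. With all 32 libraries, 3 of which carried a heart profile, none of the 3 rule genes passed the threshold. Their median log2 change was 0.48 in that setting and 0.46 in the main fit. Atp6v0d2 averaged 41.6 CPM in injured against 29.6 CPM in contralateral kidneys and rose by 0.47 ± 0.11 (SE, adjusted p = 0.000897). Slc26a4 ran from 11.04 over 44.1 to 87.4 CPM in injured kidneys and from 40.1 over 68.9 to 122 CPM in contralateral kidneys, and fell by 0.80 ± 0.20 on the log2 scale (SE, adjusted p = 0.00101). Its change was −0.40 in TG_TAM, −1.4 in WT_TAM and −0.61 in TG_VEH, and WT_TAM passed the threshold on its own (adjusted p = 0.00163).

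Among the 25 further intercalated genes, 8 were higher, 11 lower and 6 not called, with a median of 0.05. The shares higher and lower among all genes were 39.5% and 35.5%. With library totals in place of TMM factors 14 of the 25 were higher and 8 lower (median 0.39), which turns the balance, and with all 32 libraries 6 were higher and none lower. Foxi1 averaged 15.8 CPM in injured against 13.8 CPM in contralateral kidneys (log2 change 0.20 ± 0.13, adjusted p = 0.165). It passed the threshold when IRI_TG_VEH library 1 was left out. Atp6v1b1 averaged 77.3 CPM in injured against 78.9 CPM in contralateral kidneys (−0.05 ± 0.11, adjusted p = 0.720). Slc4a1 fell by 0.50 ± 0.15, with 30.2 CPM in injured against 42.3 CPM in contralateral kidneys (adjusted p = 0.0064).

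Of the 3 genes that define type B, 2 fell in injured kidneys, and of the 3 that define type A, 1 rose and 1 fell. Among all genes 39.5% were higher and 35.5% lower. With library totals 1 type B gene was higher and 1 lower, and with all 32 libraries none was called. Hmx2 had a lowest, median and highest value of 0.83, 2.89 and 6.56 CPM in injured kidneys, against 3.64, 6.09 and 7.83 CPM in contralateral kidneys, and fell by 0.99 ± 0.25 (SE, adjusted p = 0.00119). Insrr averaged 17.6 CPM in injured against 27.1 CPM in contralateral kidneys and fell by 0.71 ± 0.19 (adjusted p = 0.00189), while Slc4a9 was not called (0.28, adjusted p = 0.146). Dmrt2 averaged 11.5 CPM in injured against 5.56 CPM in contralateral kidneys and rose by 1.05 ± 0.19 (adjusted p = 5.51e-05). Kit ran from 29.2 to 73.7 CPM in the 12 injured and from 21.1 to 28.9 CPM in the 12 contralateral kidneys, with no overlap, and rose by 1.18 ± 0.10 (adjusted p = 4.33e-09). Adgrf5 rose by 0.74 ± 0.10 to 184 CPM in injured kidneys, against 109 CPM in contralateral ones. Aqp6 was not called (0.05, adjusted p = 0.806). With all 32 libraries Slc4a1, Hmx2, Insrr and Dmrt2 did not pass the threshold, and with library totals Slc4a1 and Insrr did not, at −0.15 and −0.37.

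P2ry14, the UDP-glucose receptor, averaged 9.20 CPM in injured against 2.32 CPM in contralateral kidneys and rose by 2.00 ± 0.18 (adjusted p = 8.09e-09), with injured libraries from 4.42 and contralateral libraries up to 3.97 CPM. Whole kidney also holds other cells with these genes. In the single cells P2ry14 stood at 7.52 CPM in other injured barcodes and 0.26 CPM in other uninjured barcodes, and Kit at 5.91 and 0.51 CPM. Markers of infiltrating cells rose in the same whole-kidney libraries, with 9 of 9 myeloid and 11 of 11 tested lymphocyte genes higher, where 39.5% of all genes were higher. The part of infiltrating cells in the rise of P2ry14 and Kit was not tested.

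The pump as a whole was lower in injured kidneys, with 18 of 22 genes lower, 2 higher and a median of −0.65, where 35.5% of all genes were lower and 39.5% higher. The 2 higher ones were Atp6v1g3 and Atp6v0d2, and the genes not called were Atp6v1b1 and Atp6v0a1. The widespread forms fell, among them Atp6v1b2 (−0.99 ± 0.12), Atp6v1g1 (−0.95 ± 0.12) and Atp6v0d1 (−0.71 ± 0.09), and so did Atp6v0a4, to 226 CPM in injured kidneys against 382 CPM in contralateral ones (−0.83 ± 0.11). Atp6v0a4 is shared with proximal tubule, as the single cells above show, and all 16 proximal markers fell in injured kidneys with a median of −1.73. With library totals in place of TMM factors 14 pump genes were lower and 4 higher, with a median of −0.29. Of 27 acid-base genes 18 were lower and 3 higher (median −0.80), and all 24 respiratory genes were lower (median −1.12).

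Of the 10 genes named as higher in injured members, 8 were also higher in injured whole kidney and none lower, with a median of 1.72, where 39.5% of all genes were higher. The 10 include Igkc. Cldn4 ran from 20.7 over 44.4 to 92.3 CPM in injured kidneys and from 7.27 over 9.98 to 20.96 CPM in contralateral kidneys, an increase of 2.04 ± 0.17 (adjusted p = 2.62e-09). Tmem158 ran from 2.64 over 10.2 to 17.4 CPM in injured kidneys and from 1.18 over 1.94 to 3.89 CPM in contralateral kidneys, an increase of 2.22 ± 0.20 (adjusted p = 1.07e-08). Plac8 averaged 28.4 CPM in injured against 8.10 CPM in contralateral kidneys (1.73 ± 0.22, adjusted p = 4.51e-07), and Cd24a 250 and 123 CPM (1.03 ± 0.10, adjusted p = 2.73e-08). For Cldn4, Tmem158, Plac8 and Cd24a a few libraries of the groups overlapped. Ly6a and Ly6e were not called, at 0.08 (adjusted p = 0.589) and 0.22 (adjusted p = 0.203), and both passed the threshold when CONTRA_TG_VEH library 2 was left out. Apart from Foxi1, Ly6a and Ly6e, no gene of the 22 followed by library changed its call when any 1 of the 24 libraries was left out. Gstm1, lower in injured members, averaged 133 CPM in injured against 198 CPM in contralateral kidneys and fell by 0.59 ± 0.11 (adjusted p = 4.92e-05). By arm its change was −0.05 in TG_TAM (adjusted p = 0.859), −0.50 in WT_TAM and −1.21 in TG_VEH. These transcripts come from many cell types, so the whole-kidney change is not the change of intercalated cells.

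**Figure D5:**
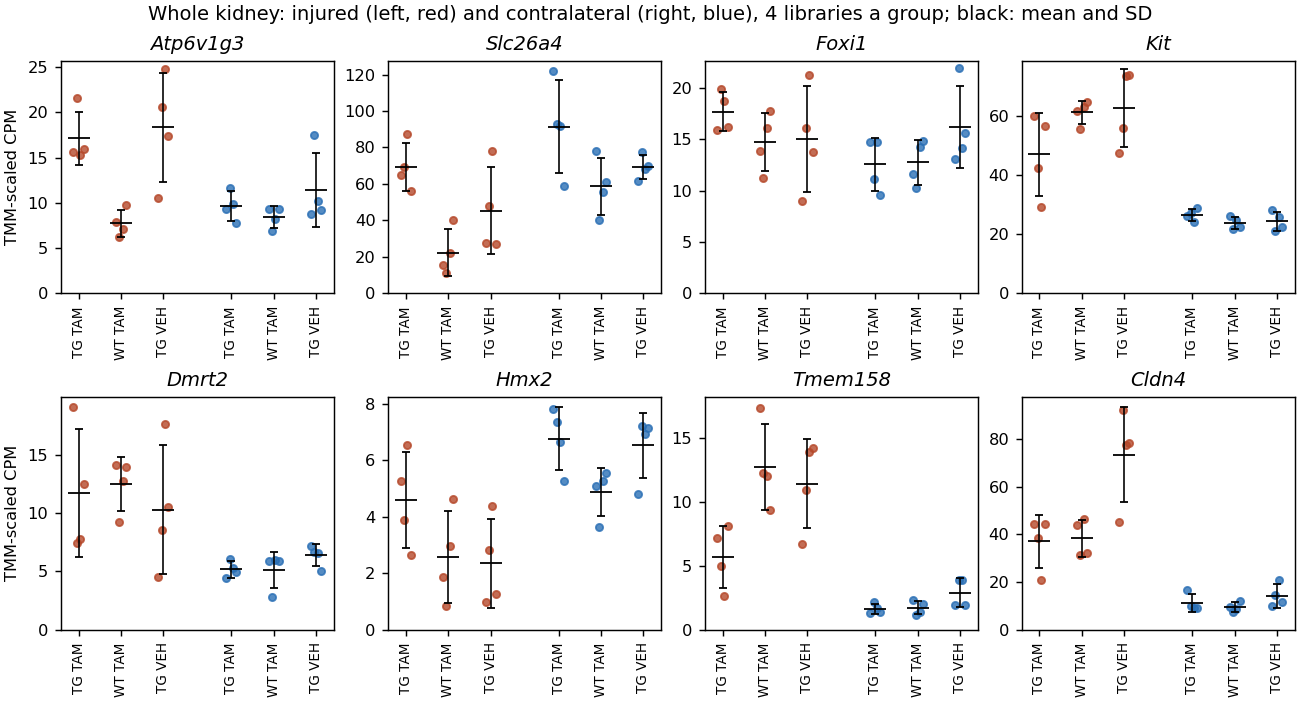
TMM-scaled CPM (vertical axis, from 0) of 8 genes in each whole-kidney library, injured groups on the left in red and contralateral groups on the right in blue, with group means and SD over 4 libraries in black and a small fixed offset between points. Kit does not overlap between injured and contralateral kidneys, Slc26a4 and Hmx2 are mostly lower in injured kidneys, and Atp6v1g3 is high in the TG_TAM and TG_VEH injured groups but not in WT_TAM.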

How the data were processed

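The single-cell tables held UMI counts per gene and barcode, which the authors deposited, made with Cell Ranger and STAR on GRCm38 (mm10) per the submitters' processing notes. The bulk table held expected counts per transcript, deposited by the authors and made with Salmon 1.4 per the same notes. Members and gene lists were chosen with earlier results of these data known. UMIs were summed over members per library and given as CPM, with exact Poisson, binomial (Clopper-Pearson) and conditional binomial 95% intervals. Genes with a mean of at least 100 CPM entered the counts, and 2-fold was the limit. Named were all list genes of the lineage and pump, and up to 10 genes per direction whose interval lay beyond 2-fold, alone or minus principal barcodes. Doublets were not called. Deposited expected counts were summed to genes with GENCODE M21 (552 of 105833 transcripts not found), rounded and tested with edgeR 4.0.16 in R 4.3.3: TMM, filterByExpr, 24 libraries, 1 coefficient per group, threshold 0.05. The fit left out the uninjured and nephrectomy groups, where 3 libraries carried a heart profile. The settings below included DESeq2 1.42.0.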

Additional observations from a re-analysis of the deposited data

Results flagged for a closer look

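Within groups of 4 whole-kidney libraries, a library was singled out where its gap to the nearest other exceeded Dixon's 95% critical value. Over 132 gene and group combinations 9 were singled out, where chance flags about 1 in 20. Values are TMM-scaled CPM. Atp6v1g3 stood at 21.5 in IRI_TG_TAM library 2, where the others ran from 15.3 to 16.02, and at 17.5 in CONTRA_TG_VEH library 2, against 8.76 to 10.2. Slc4a1 stood at 46.1 in IRI_TG_VEH library 3, against 17.2 to 22.2. Atp6v0d2 stood at 24.4 in CONTRA_TG_TAM library 4, against 32.9 to 34.1. Hmx2 stood at 4.82 in CONTRA_TG_VEH library 1, against 6.93 to 7.21, and Dmrt2 at 2.82 in CONTRA_WT_TAM library 2, against 5.85 to 6.01. Cldn4 stood at 16.8 in CONTRA_TG_TAM library 1, against 8.94 to 10.1. CONTRA_TG_VEH library 2, which stood apart in depth, also held Tmsb4x at 365, against 149 to 170, and Nfkbia at 32.9, against 22.3 to 23.3. The injury change of Gstm1 differed between arms, by 0.81 on the log2 scale for TG_TAM minus the intact arms (edgeR, adjusted p = 0.0281).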

How the results depend on the processing

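Against 60 genes higher and 25 lower in injured members, the counts were 96 and 45 with each barcode weighted equally, 181 and 157 with barcodes thinned to 1000 UMIs, 109 and 39 without members holding UMIs of other cell types, 229 and 85 at a minimum of 50 CPM, 21 and 9 at 200 CPM, 125 and 123 in type A alone and 94 and 43 in type B alone. The lower count was 56 without mitochondrial UMIs and 63 at no more than 25% mitochondrial UMIs. The type splits were added after the data were seen. The median of the injury list ran from 0.81 to 1.75 and that of antigen presentation from 1.76 to 3.52 over these settings. The bulk counts of 6716 higher and 6038 lower became 10178 and 3323 with library totals without TMM factors, a setting also added later. There Atp6v1b1 reversed, to 0.31 from −0.05. With all 32 libraries the counts were 5828 and 4767, and none of the 3 rule genes passed the threshold. Leaving out 1 library at a time gave 6542 to 6944 higher and 5898 to 6200 lower. The column number as a replicate block gave 6555 higher and 5858 lower. Same-numbered libraries correlated from −0.225 to 0.192 over 12 pairs, and 5 correlated best with their own number, so the number was not taken as a pairing. Single-cell statements are limited by 32 uninjured members in 1 library, where a gene at 0 UMIs may still be present, and by the lack of a second animal.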

Other observations

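Guca2a, the peptide guanylin, was close to confined to members, at 514 CPM in injured and 175 CPM in uninjured members against 2.69 and 1.53 CPM in other barcodes, chosen here after its values were seen. Its ratio was 1.55 (0.92 to 2.25) over all members. Within type B it was 2.63 (1.69 to 3.73), with 99 UMIs in injured and 10 in uninjured cells, and within type A 0.37 (−0.54 to 1.41). Clcn5, the endosomal chloride-proton exchanger, had 110 UMIs in 40 injured members and 10 in 7 uninjured members, a log2 ratio of 2.20 (1.26 to 3.30), and stood at 17.5 CPM in other injured and 35.5 CPM in other uninjured barcodes.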
